A study of Homo sapiens with 6 samples.

Results

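The MHC class II genes and CIITA were followed in H9 cells as a group of 10 genes: HLA-DRA, HLA-DRB1, HLA-DPA1, HLA-DPB1, HLA-DQA1, HLA-DQB1, HLA-DMA, HLA-DMB, CD74 and CIITA. They were chosen by symbol among the 61541 genes counted. Each symbol had 1 entry, and all 10 were among the 17678 genes that passed the filter on low counts and were tested. H9 is an established T-cell lymphoma line, here with an unmodified (WT) genotype. The cells received either vehicle (DMSO) or AZD4573, an inhibitor of CDK9, the kinase that releases paused RNA polymerase II into productive elongation. Bulk RNA-seq covered 3 DMSO and 3 AZD4573 libraries, the latter labelled 4 h. The labels give no time for DMSO and do not say whether replicates were separate cultures, so that the p-values measure the spread between these libraries, which may be technical.

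MHC class II molecules are pairs of an alpha and a beta chain that present peptides from the endolysosome to CD4 T cells. CD74, the invariant chain, fills their groove during assembly, and HLA-DM, a pair of HLA-DMA and HLA-DMB, exchanges its last fragment for a peptide. CIITA is the coactivator of these genes: it binds no DNA itself and is recruited by the RFX complex, CREB1 and NF-Y, which sit on the X and Y boxes of class II promoters. Human T cells make class II once activated, and some T-cell lymphoma lines make it constantly.

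Matches to letters of the promoter boxes are shown for the 4 members in which a match to X letters was followed within 60 bases by one to Y letters. Windows of 300 bases, from 250 before to 50 after an annotated start, came from RefSeq on GRCh38.p14. They covered 8 of the 10 members in 9 windows, and HLA-DRA and CIITA had none. The letters searched on both strands were ACNGATG, a piece of the X box, and CCAAT for the Y box, and they were chosen with the sequences in view. The 2 motifs do not overlap each other here. Each sequence runs 5′ to 3′ on the strand of the gene, the minus strand in all 4, and capitals mark the X match and then the Y match.
HLA-DRB1, chr6:32589878-32589935: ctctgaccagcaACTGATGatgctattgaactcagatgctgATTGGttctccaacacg
HLA-DQB1, chr6:32666729-32666786: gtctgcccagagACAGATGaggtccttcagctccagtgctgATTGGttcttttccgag
HLA-DMA, chr6:32953160-32953218: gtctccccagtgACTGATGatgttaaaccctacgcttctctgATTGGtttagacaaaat
HLA-DMB, chr6:32941034-32941124: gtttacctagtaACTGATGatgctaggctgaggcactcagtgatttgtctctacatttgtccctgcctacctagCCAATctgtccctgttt
The gap between the X match and the Y match was 22 bases in HLA-DRB1 and in HLA-DQB1, 23 in HLA-DMA and 55 in HLA-DMB. In HLA-DMB the Y match also had the opposite orientation. At the spacing of HLA-DMA, the HLA-DMB sequence reads atttg, which the search does not match. Whether the marked CCAAT of HLA-DMB is its Y box was not tested. CCAAT was found in 7 of the 9 windows of members and in 34.6% of the 35116 windows of all genes. ACNGATG was found in 5 of the 9 and in 7.65% of all windows. An X match followed within 60 bases by a Y match was found in 4 of the 9 and in 0.715% of all. With its gap of 55 bases, HLA-DMB is among these 4 only because the limit was wide. These matches describe the reference sequence and are not measured binding sites, and their relation to the fold changes was not tested.

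Total counts were 70367303 to 76571157 with DMSO and 52101868 to 63795185 with AZD4573. CPM is the number of counts of a gene per 1000000 counts of its library, with the total scaled by TMM. In the shallowest library a gene with no count may stand as high as 0.0590 CPM, the value of 3 counts, a limit for counting error only. Genes of the T-cell receptor complex marked the cells as T cells, with CD3E at 154 ± 2.10 CPM (SD, n = 3) in DMSO, whereas CD2 and CD7 were below 1 CPM in both groups. The B-cell genes CD79A and BLK were present at 57.8 ± 2.96 and 72.5 ± 3.37 CPM (SD, n = 3) in DMSO. The B-cell genes MS4A1, PAX5, CD22 and CR2 were at or near 0, and the 8 B-cell markers summed to 133 to 143 CPM in DMSO and to 167 to 180 CPM in AZD4573. The 8 myeloid markers summed to at most 0.702 CPM and the 7 dendritic-cell markers to at most 0.393 CPM in any library. The part of other cells in the results was not tested beyond these levels. In bulk samples, fewer cells of a type and less RNA per cell cannot be told apart.

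Upon AZD4573 treatment, CD74, HLA-DRA, HLA-DRB1, HLA-DPB1, HLA-DQA1, HLA-DQB1 and HLA-DMA stood higher on the TMM scale, by 1.18-fold for HLA-DRA to 1.89-fold for HLA-DQB1. HLA-DPA1, HLA-DMB and CIITA did not pass the test, and CIITA was the one member with a negative log2 fold change. Thus 7 of 10 members were higher and 0 lower at an adjusted p under 0.05 (edgeR's quasi-likelihood test, Benjamini-Hochberg over all genes tested, TMM scaling), whereas with the libraries scaled to 13 mitochondrial mRNAs 0 were higher and 7 lower. Of all 17678 genes tested, 37.3% were called higher and 37.4% lower, 74.7% in all, so that being called is common in this comparison. With mitochondrial scaling 67.2% of all genes tested were called lower and 12.1% higher, so that 7 of 10 members lower was near the share of all genes. In the same 7 members the lowest AZD4573 value exceeded the highest DMSO value, as it did in 39% of all genes tested. The changes were small: 2 of 10 members, HLA-DQB1 and HLA-DMA, were higher by at least 1.5-fold, a size that 22.7% of all genes reached in this direction and 23.7% in the other. The median log2 fold change was 0.35 over the 10 members and 0.03 over all genes tested.

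**Figure D1:**
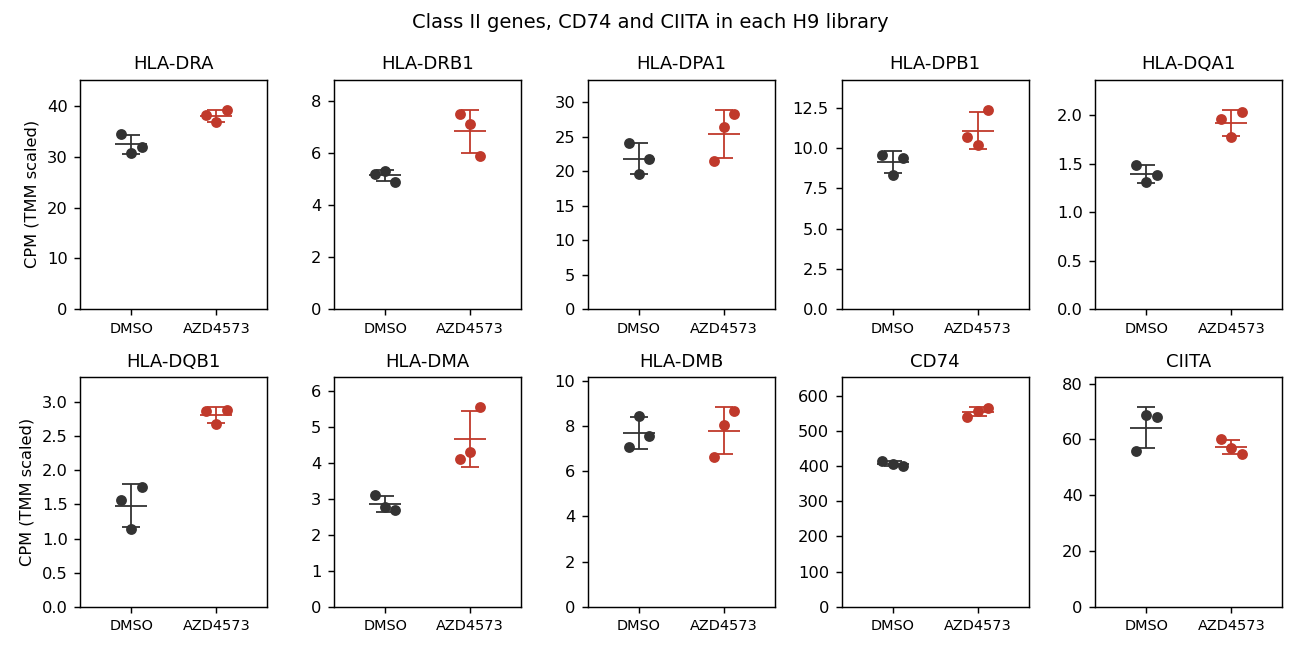
CPM (TMM scaled, linear axes from 0) of the 10 members in each of 3 DMSO libraries (black) and 3 AZD4573 libraries (red), with the mean and SD of each group. The groups are apart for 7 members, all higher with AZD4573 on this scale, and overlap for HLA-DPA1, HLA-DMB and CIITA.

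The scale decides the direction. Mitochondrial mRNAs, 13 in number, are made by a polymerase of their own. Their share of the library was 3.13% ± 0.0929 in the vehicle group and 4.85% ± 0.162 in the treated group (SD, n = 3). With libraries scaled to them, the median over all genes tested was -0.71 in place of 0.03. On that scale CD74 stood at -0.29 (adjusted p = 0.00011), HLA-DRA at -0.51 (adjusted p = 1.3e-05) and CIITA at -0.90 (adjusted p = 3.2e-08, all by edgeR's quasi-likelihood test). HLA-DQB1 was the one member with a positive value, 0.18 (adjusted p = 0.351, edgeR). A change of scaling shifts all genes by nearly the same amount, so that the place of a member relative to the median of all genes is 1 measurement and not 2. CD74 lay 0.42 above that median and CIITA 0.19 below it. Of the others, 7 lay above it, and HLA-DMB (SE 0.111) could not be told from it. Among the 7, HLA-DPA1 lay 0.19 above the median (SE 0.0973) and could not be told from it either. The interval of HLA-DPA1 with TMM, 0.01 to 0.43, contains the median of 0.03.

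**Figure D2:**
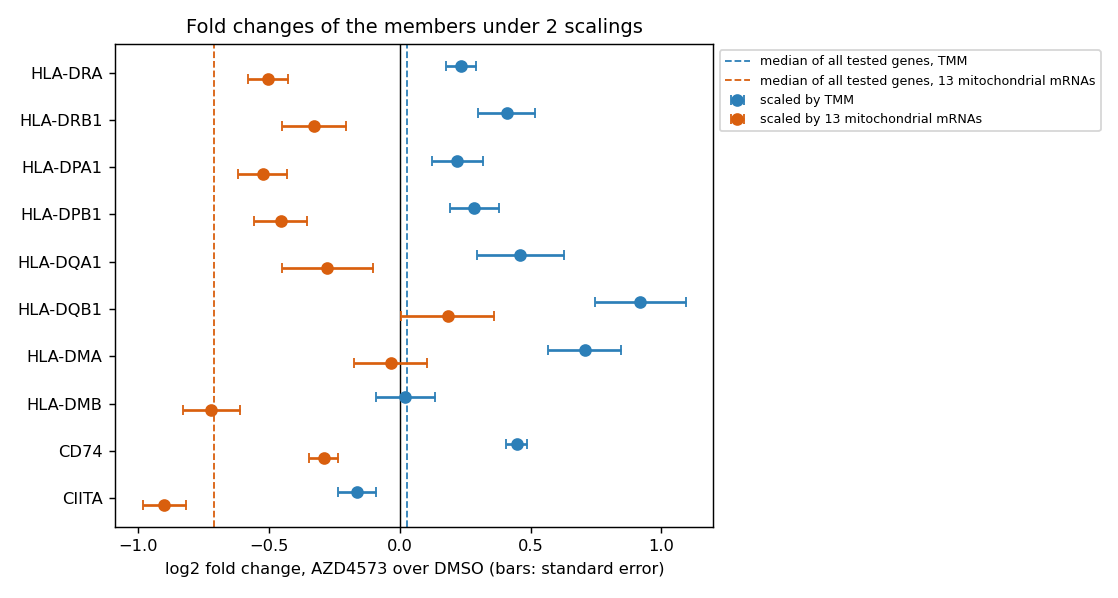
Log2 fold changes (AZD4573 over DMSO, bars are standard errors, n = 3 per group) of the 10 members with libraries scaled by TMM (blue) or by 13 mitochondrial mRNAs (orange), with the median of all genes tested as dashed lines. All members move left with the mitochondrial scaling, and so does the median of all genes, from 0.03 to -0.71.

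CIITA, on chromosome 16 (10866222 to 10943021, plus strand, GRCh38), gave 4373, 5029 and 5017 counts with vehicle and 3054, 3238 and 3351 with AZD4573. As CPM these were 55.7, 68.7 and 68.1 with DMSO and 60.01, 56.8 and 54.9 with AZD4573. DMSO replicate 1 lay apart from the other DMSO libraries and within the AZD4573 range, so that the groups overlapped. The mean was 64.2 ± 7.31 CPM with DMSO and 57.2 ± 2.58 with AZD4573 (SD, n = 3). The log2 fold change was -0.17 (SE 0.0730, 95% interval -0.32 to -0.01, adjusted p = 0.0556 by edgeR's quasi-likelihood test), and CIITA was not called. Without DMSO replicate 1 it was -0.27 (adjusted p = 0.00036, edgeR), and without AZD4573 replicate 1 it was -0.20 (adjusted p = 0.0444, edgeR), both past the threshold. CIITA was not called without DMSO replicate 2 (-0.12, adjusted p = 0.179) or DMSO replicate 3 (-0.13, adjusted p = 0.156, edgeR). The same held without AZD4573 replicate 2 (-0.16, adjusted p = 0.124) or AZD4573 replicate 3 (-0.14, adjusted p = 0.169, edgeR). Of 13 alternative settings, 7 left CIITA uncalled and 6 called it lower. DESeq2, the tool of the study, gave -0.18 (adjusted p = 0.0293). Of the 16061 bases of the canonical transcript, 830 overlap DEXI on the opposite strand, which fell with AZD4573 (log2 fold change -0.51, SE 0.0537, adjusted p = 1.2e-06, edgeR, TMM). Over all annotated exons of CIITA the overlap with DEXI is 2424 bases. Counting without strand cannot tell such reads apart. ENSG00000280153, on the strand of CIITA, shares 2378 bases of the canonical transcript and had 0 counts in every library.

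CD74, the invariant chain (chromosome 5, 150401637 to 150412969, minus strand), was the most abundant member. It stood at 415, 405 and 401 CPM with vehicle and at 541, 557 and 566 CPM with AZD4573. The groups were far apart and the libraries of each lay close together. CD74 rose 1.36-fold (95% interval 1.28 to 1.45; log2 fold change 0.45, SE 0.0396, adjusted p = 2.2e-07, edgeR's quasi-likelihood test) by TMM and fell with mitochondrial scaling. Its share of all counts of the 10 members was 73.6% ± 0.825 with DMSO and 78.1% ± 0.210 with AZD4573 (SD, n = 3), a quantity that no scaling changes.

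HLA-DRA encodes the nearly invariant alpha chain of HLA-DR (chromosome 6, 32439878 to 32445046, plus strand). Its libraries stood at 34.5, 30.9 and 32.1 CPM with DMSO and 38.2, 37.0 and 39.4 CPM with AZD4573, without overlap. HLA-DRA rose 1.18-fold by TMM (log2 fold change 0.23, SE 0.0574, adjusted p = 0.00231, edgeR) and fell with mitochondrial scaling, and with library size as the only scaling it missed the threshold (0.13, adjusted p = 0.0530, edgeR). HLA-DRB1, the polymorphic beta chain of HLA-DR (32577902 to 32589848, minus strand), stood at 5.19, 5.33 and 4.90 CPM with DMSO and 7.49, 7.12 and 5.90 CPM with AZD4573. AZD4573 replicate 3 was nearest to the DMSO libraries but still above them. HLA-DRB1 rose 1.33-fold by TMM (log2 fold change 0.41, SE 0.109, adjusted p = 0.00395, edgeR) and stood at -0.33 with mitochondrial scaling (adjusted p = 0.0224, edgeR). The HLA-DRB family summed to 1 feature gave 0.43 (SE 0.0942, adjusted p = 0.00099, edgeR, TMM).

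Both HLA-DP chains showed positive values on the TMM scale and negative ones on the mitochondrial scale, and the beta chain alone passed the test with TMM. HLA-DPA1, the alpha chain (33064569 to 33080775, minus strand), stood at 24.1, 19.6 and 21.8 CPM with DMSO and at 21.5, 26.4 and 28.3 CPM with AZD4573. AZD4573 replicate 1 fell among the DMSO libraries. Its log2 fold change was 0.22 (SE 0.0973, 95% interval 0.01 to 0.43, adjusted p = 0.0560, edgeR), and without AZD4573 replicate 1 it was 0.32 (adjusted p = 0.00448, edgeR), past the threshold, as it was without DMSO replicate 1 (0.29, adjusted p = 0.0210). HLA-DPA1 was not called without DMSO replicate 2 (0.14, adjusted p = 0.251) or DMSO replicate 3 (0.21, adjusted p = 0.115, edgeR). The same held without AZD4573 replicate 2 (0.19, adjusted p = 0.173) or AZD4573 replicate 3 (0.13, adjusted p = 0.294, edgeR). HLA-DPB1, the beta chain (33075990 to 33089696, plus strand), stood at 9.61, 8.34 and 9.41 CPM with DMSO and 10.7, 10.2 and 12.4 CPM with AZD4573. These groups did not overlap but lay close, and the log2 fold change was 0.28 (SE 0.0941, adjusted p = 0.0145, edgeR, TMM). It was not called with library size as the only scaling (0.18, adjusted p = 0.1003, edgeR), without DMSO replicate 2 (0.21, adjusted p = 0.0878) or without AZD4573 replicate 3 (0.19, adjusted p = 0.0954, edgeR).

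The HLA-DQ chains were the least abundant members, and their beta chain showed the largest fold change of the 10. HLA-DQA1 (32628179 to 32647062, plus strand) gave 96 to 117 counts with DMSO and 100 to 124 with AZD4573. As CPM these were 1.49, 1.31 and 1.38 against 1.97, 1.77 and 2.03, without overlap. HLA-DQA1 was higher by 0.46 on the log2 scale with TMM (SE 0.165, adjusted p = 0.0215, edgeR) and at -0.28 with mitochondrial scaling (adjusted p = 0.158, edgeR). The TMM call was lost with DESeq2 (adjusted p = 0.1005) and without a filter on low counts (adjusted p = 0.0712, edgeR), and with library size as the only scaling HLA-DQA1 was not called (adjusted p = 0.0596, edgeR). It was also lost without DMSO replicate 2 (adjusted p = 0.0788), DMSO replicate 3 (adjusted p = 0.0599) or AZD4573 replicate 3 (adjusted p = 0.0674, edgeR). HLA-DQB1 (32659467 to 32668383, minus strand) stood at 1.57, 1.13 and 1.75 CPM with DMSO and at 2.87, 2.68 and 2.88 CPM with AZD4573. Every AZD4573 library was well above the highest DMSO library. HLA-DQB1 rose 1.89-fold with TMM (95% interval 1.46 to 2.46; log2 fold change 0.92, SE 0.175, adjusted p = 0.00031, edgeR), and at 0.18 with mitochondrial scaling it was not called.

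The paralogue HLA-DQA2 took more counts than HLA-DQA1, 269 to 275 against 96 to 117 with DMSO. HLA-DQA1 shares 5.60% of the 75-base windows of its transcript with HLA-DQA2, and class II alleles of H9 can differ from the reference alleles, so that the division between these copies is uncertain. Summed to 1 feature, the HLA-DQA family gave 0.48 (SE 0.0994, adjusted p = 0.00066) and the HLA-DQB family 0.88 (SE 0.162, adjusted p = 0.00024, edgeR's quasi-likelihood test, TMM).

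Of the chains of HLA-DM, the peptide exchanger, HLA-DMA passed the test with TMM and HLA-DMB did not. HLA-DMA (32948613 to 32969094, minus strand) stood at 3.11, 2.77 and 2.702 CPM with DMSO and at 4.13, 4.32 and 5.55 CPM with AZD4573, without overlap. HLA-DMA rose 1.63-fold with TMM (log2 fold change 0.71, SE 0.139, adjusted p = 0.00043, edgeR), and its value was -0.04 with mitochondrial scaling (adjusted p = 0.824, edgeR). HLA-DMB (32934629 to 32941028, minus strand) stood at 7.06, 8.47 and 7.56 CPM with DMSO and at 6.64, 8.07 and 8.67 CPM with AZD4573. The lowest and the highest of these 6 values were both AZD4573 libraries. Its log2 fold change was 0.02 (SE 0.111, 95% interval -0.22 to 0.26, adjusted p = 0.868, edgeR) with TMM, and HLA-DMB fell by 0.72 with mitochondrial scaling (adjusted p = 1.1e-05, edgeR). The gene ENSG00000248993, which overlaps both, shares 28.7% of the 75-base windows of HLA-DMB and 7.36% of those of HLA-DMA, and it took at most 7 counts in any library.

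Ratios between members within a library do not depend on the scaling. With 3 libraries against 3, an exact permutation test over the 5 chain and partner ratios cannot go below p = 0.1. The ratio of HLA-DMA to HLA-DMB was 0.440, 0.327 and 0.357 with DMSO and 0.621, 0.535 and 0.641 with AZD4573, a 1.605-fold difference (exact two-sided p = 0.1, adjusted 0.167 over 5 ratios). HLA-DQA1 to HLA-DQB1 was 0.951, 1.16 and 0.791 against 0.685, 0.660 and 0.705, 0.715-fold (exact p = 0.1, adjusted 0.167). CD74 to HLA-DRA was 12.01, 13.1 and 12.5 against 14.2, 15.0 and 14.4, 1.16-fold (exact p = 0.1, adjusted 0.167). In these 3 ratios the groups did not overlap, and p was the smallest that the design allows. HLA-DRA to HLA-DRB1 was 6.33 ± 0.461 against 5.66 ± 0.879 (SD, n = 3, exact p = 0.4), and HLA-DPA1 to HLA-DPB1 was 2.39 ± 0.0989 against 2.29 ± 0.292 (SD, n = 3, exact p = 0.7), with overlap in both.

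Relative to CD74 and to HLA-DRA, the counts of CIITA were lower in all AZD4573 libraries, without overlap with DMSO. These ratios were picked with their values known and carry no test. What reads of DEXI add to the counts of CIITA in them was not tested. CIITA to CD74 was 0.134, 0.170 and 0.170 with DMSO and 0.111, 0.102 and 0.0970 with AZD4573, 0.657-fold. CIITA to HLA-DRA was 1.61, 2.22 and 2.12 against 1.57, 1.54 and 1.40, 0.761-fold. DMSO replicate 1, the DMSO library nearest to the AZD4573 group in both, lies just above it for HLA-DRA.

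**Figure D3:**
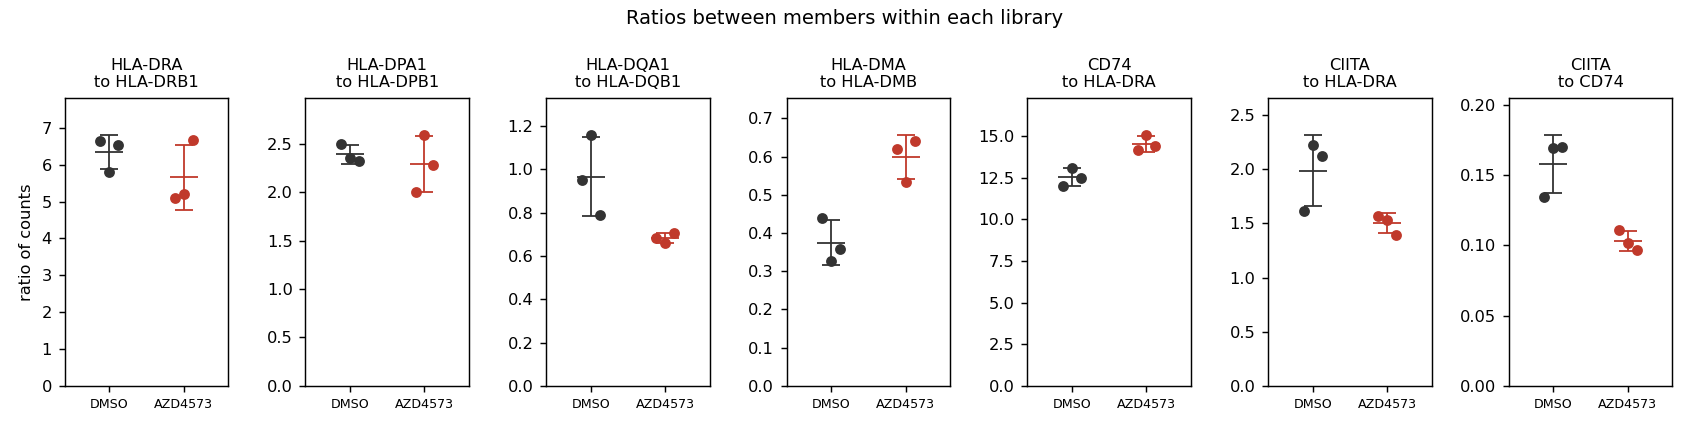
Ratios of counts between members within each of 3 DMSO (black) and 3 AZD4573 (red) libraries, with the mean and SD of each group, linear axes from 0. HLA-DMA to HLA-DMB and CD74 to HLA-DRA are higher with AZD4573, and HLA-DQA1 to HLA-DQB1 and both CIITA ratios are lower, without overlap.

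Levels per kilobase of canonical transcript put CD74 first in DMSO, at 246 ± 4.31 CPM per kb (SD, n = 3). HLA-DRA followed at 26.3 ± 1.497 and HLA-DPA1 at 12.8 ± 1.31 CPM per kb (SD, n = 3). Next came HLA-DMB at 5.71 ± 0.528, HLA-DRB1 at 4.20 ± 0.177, HLA-DMA at 2.62 ± 0.200 and HLA-DPB1 at 2.29 ± 0.171 CPM per kb (SD, n = 3). HLA-DQB1 at 0.925 ± 0.198 and HLA-DQA1 at 0.887 ± 0.0577 CPM per kb (SD, n = 3) were last and differed by less than their spread. With AZD4573 the order was the same except that HLA-DQB1, at 1.75 ± 0.0693, and HLA-DQA1, at 1.22 ± 0.0857 CPM per kb (SD, n = 3), stood apart. HLA-DMB at 5.78 ± 0.772 and HLA-DRB1 at 5.59 ± 0.680 CPM per kb (SD, n = 3) then differed by less than their spread. The alpha chains of HLA-DR and HLA-DP exceeded their beta chains per kilobase, and since beta-chain reads of alleles far from the reference may go uncounted, this order between chains is uncertain. The canonical transcript of HLA-DPB1 has 3.991 kb against 1.704 kb for HLA-DPA1, so that the place of HLA-DPB1 also depends on the transcript chosen. CIITA was left out of the order, because its annotated transcripts differ widely in length.

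Class II loci outside the group were also measured. Of 14 listed, 12 were in the counts and 5 were tested, of which 4 were higher and 0 lower with TMM, and 0 were called in either direction with mitochondrial scaling. Of all genes, 37.3% were higher and 37.4% lower with TMM, and 12.1% and 67.2% with mitochondrial scaling. HLA-DOA, a chain of the HLA-DM inhibitor HLA-DO, stood at 1.56 ± 0.270 CPM with DMSO and 2.87 ± 0.545 with AZD4573 (SD, n = 3; log2 fold change 0.88, adjusted p = 0.0007, edgeR, TMM). Its partner HLA-DOB stood at 0.46 (adjusted p = 0.0149), HLA-DRB5 at 0.50 (adjusted p = 0.0115) and HLA-DQA2 at 0.48 (adjusted p = 0.00171, edgeR, TMM). HLA-DQB2 was not called.

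The factors that recruit CIITA to class II promoters were mostly lower under both scalings. Of 7 tested, 5 were lower and 1 higher (median log2 fold change -0.60), and with mitochondrial scaling all 7 were lower. Of all genes tested, 37.4% were lower with TMM and 67.2% with mitochondrial scaling. CREB1, which binds the X2 part of the X box, stood at 51.3 ± 1.41 CPM with DMSO and 16.6 ± 2.23 with AZD4573 (SD, n = 3; log2 fold change -1.63, adjusted p = 7.2e-10, edgeR). RFXAP, a subunit of the RFX complex, changed by -1.24 (adjusted p = 1.2e-08, edgeR). RFXANK, another subunit, was higher by 0.36 with TMM (adjusted p = 4e-05, edgeR) and lower with mitochondrial scaling, and RFX5, the subunit that contacts DNA, stood at -0.08 (adjusted p = 0.0865, edgeR, not called). The NF-Y subunits NFYA (-1.13), NFYC (-0.60) and NFYB (-0.41) were all lower, also with mitochondrial scaling.

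Among 8 cofactors of CIITA, 6 were lower and 2 higher (median -0.43), and all 8 were lower with mitochondrial scaling. The share of all genes that were lower was 37.4% with TMM and 67.2% with mitochondrial scaling. The acetyltransferases CREBBP (102 ± 3.69 CPM with DMSO, 43.8 ± 1.47 with AZD4573, SD, n = 3) and EP300 (133 ± 8.56 and 63.1 ± 4.55) had log2 fold changes of -1.22 and -1.08. CARM1, an arginine methyltransferase, and SMARCA4, a chromatin remodeller, were higher by 0.38 and 0.15 with TMM and lower with mitochondrial scaling.

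The genes upstream of CIITA, interferon-gamma signalling and the factors at the CIITA gene, fell nearly throughout. Of 14 listed, 12 were tested, 11 were lower and 1 was higher (median -0.50), and all 12 were lower with mitochondrial scaling. Among all genes tested, 37.4% were lower with TMM and 67.2% with mitochondrial scaling. PRDM1, a repressor of CIITA, fell from 4.48 ± 0.276 to 0.864 ± 0.102 CPM (SD, n = 3; log2 fold change -2.37, adjusted p = 7.9e-09, edgeR). IRF4 was at 0.195 CPM or less on average in both groups, close to 0, with a log2 fold change of -2.39. IRF1, an interferon-induced factor, had a log2 fold change of -0.42, and the receptor chain IFNGR1 one of -2.001. JAK1 was higher by 0.49 with TMM (adjusted p = 1.1e-07, edgeR) and lower with mitochondrial scaling. SOCS1 had 0 counts in every library, and SPI1 was at or near 0.

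Endolysosomal genes cut antigens and the invariant chain or carry class II to the surface. Of 12 tested processing genes, 7 were higher and 2 lower by TMM (median 0.32), whereas 0 were higher and 9 lower with mitochondrial scaling, where 67.2% of all genes were lower. By TMM, 37.3% of all genes were higher and 37.4% lower. The proteases CTSF (log2 fold change 1.22) and CTSB (0.65) had the highest TMM values, at 0.48 and -0.09 with mitochondrial scaling, and CTSZ (-0.98) and CTSC (-0.57) were lower. CTSS, which trims the invariant chain, stood at 25.2 ± 1.82 CPM with DMSO and 32.9 ± 1.01 with AZD4573 (SD, n = 3; log2 fold change 0.38, adjusted p = 8.6e-05, edgeR, TMM) and at -0.36 with mitochondrial scaling. Of 11 genes of trafficking and turnover, 8 were higher and 1 lower by TMM (median 0.22), against 1 higher and 9 lower with mitochondrial scaling, beside the same 67.2% of all genes. CD37, a tetraspanin, was at 1.25 with TMM and was the gene still higher with mitochondrial scaling, at 0.51. The ubiquitin ligases that remove class II from the surface went opposite ways with TMM, MARCHF1 at 0.86 (adjusted p = 9.8e-05) and MARCHF8 at -0.67 (adjusted p = 1.5e-07, edgeR), and MARCHF1 was at 0.12 with mitochondrial scaling and not called.

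Of 4 tested binding partners of class II or CD74, 3 were higher by TMM and 1 was lower, beside 37.3% and 37.4% of all genes. CD4, the coreceptor that binds class II, went from 3.82 ± 0.215 to 6.98 ± 0.421 CPM (SD, n = 3; log2 fold change 0.87 with TMM and 0.13 with mitochondrial scaling). CXCR4 (0.67), which pairs with CD74, and MIF (0.42), a ligand of CD74, were also higher with TMM but at -0.07 and -0.32 with mitochondrial scaling, and CD44, its signalling partner, stood at -0.13 (adjusted p = 0.00930, edgeR). With mitochondrial scaling 2 of the 4 were lower and 0 higher, beside 67.2% and 12.1% of all genes.

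MHC class I offers a comparison with the same arrangement of a coactivator and its targets. Of 17 class I genes, 13 were higher and 3 lower by TMM (median 0.29), against 0 higher and 13 lower with mitochondrial scaling, where 67.2% of all genes were lower. By TMM, 37.3% of all genes were higher and 37.4% lower. B2M, the light chain, stood at 0.68 and ERAP2, a peptide trimmer, at 0.82 with TMM, and at -0.06 and 0.08 with mitochondrial scaling. NLRC5, the class I counterpart of CIITA, fell from 75.4 ± 7.83 to 58.6 ± 4.85 CPM (SD, n = 3; log2 fold change -0.37, SE 0.0758, adjusted p = 0.00064, edgeR). CALR (-0.38) and TAP1 (-0.24) were the other genes called lower. The difference between the class II and class I lists was not tested.

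**Figure D4:**
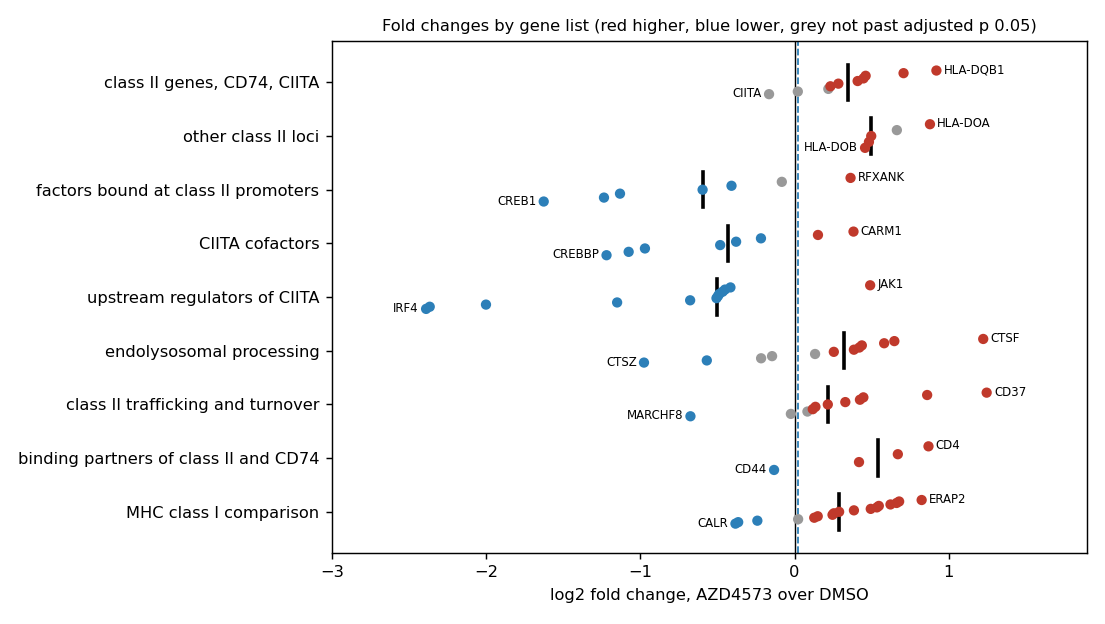
Log2 fold changes (AZD4573 over DMSO, TMM scaling) of the tested genes in 9 lists, 1 point per gene, red higher, blue lower and grey not past an adjusted p of 0.05, with each list's median as a black bar and the median of all genes tested (0.03) as a dashed line. Promoter factors, cofactors and upstream regulators of CIITA lie mostly to the left, and the class II, processing and class I genes mostly to the right.

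Along chromosome 6, from HLA-DRA to HLA-DPB1, 22 genes were tested, of which 14 were not members. Of these 14, 8 were higher and 4 lower by TMM, beside 37.3% and 37.4% of all genes tested. Those higher included HLA-DRB5, HLA-DQA2, HLA-DOA and HLA-DOB, already counted among the class II loci. TAP2, PSMB8 and PSMB9 were already counted in the class I list. The remaining one, ENSG00000250264, overlaps HLA-DOB and TAP2 on the same strand. The lowest value was that of ENSG00000289559, a long noncoding RNA at 0.683 ± 0.0397 CPM with DMSO and 0.158 ± 0.0333 with AZD4573 (SD, n = 3; log2 fold change -2.09, adjusted p = 8.4e-05, edgeR). ENSG00000289047, another, was lower by TMM at -0.37, the protein-coding gene ENSG00000250264 stood at 0.24 and PSMB8-AS1, not called, at 0.05. BRD2, a bromodomain gene, fell from 328 ± 20.7 to 223 ± 6.03 CPM (SD, n = 3; log2 fold change -0.56, adjusted p = 1.9e-07, edgeR). It overlaps HLA-DMA on the opposite strand by 55 exon bases, of which 0 are in the canonical transcript of HLA-DMA. What this overlap adds to the counts of HLA-DMA was not tested. The immunoproteasome genes PSMB8 (0.26) and PSMB9 (0.39) and the transporter gene TAP2 (0.13) were higher with TMM and lower with mitochondrial scaling, and TAP1 was lower with both. Within 200 kb of CIITA on chromosome 16, 3 of 4 other tested genes were lower by TMM, beside 37.4% of all genes. These were NUBP1 at -0.75, TVP23A at -1.47 and DEXI at -0.51, and CLEC16A stood at 0.16 (adjusted p = 0.0759, edgeR, not called).

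**Figure D5:**
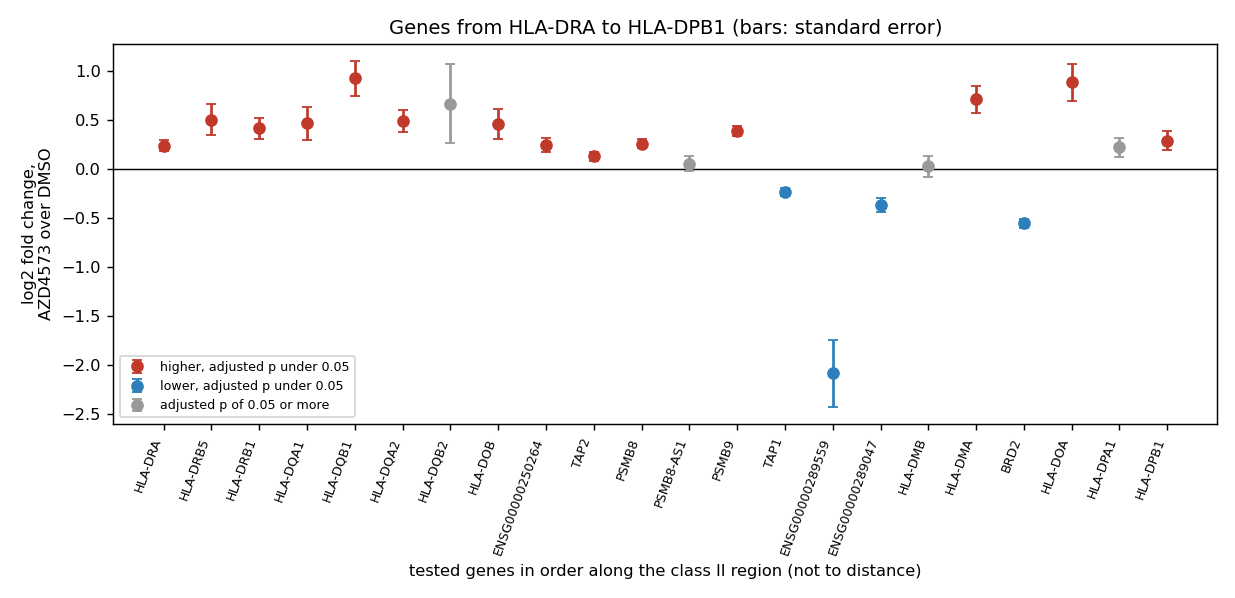
Log2 fold changes (AZD4573 over DMSO, TMM scaling, bars are standard errors, n = 3 per group) of the 22 tested genes from HLA-DRA to HLA-DPB1, in their order on the chromosome but not to distance. HLA genes lie at or above 0, and 4 other genes, BRD2 and TAP1 among them, are lower.

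The genes whose centred log2 CPM over the 6 libraries lay nearest to CIITA by Euclidean distance were DDX11 (0.0697), HERC2P9 (0.0711), RHOT2 (0.0738), ATN1 (0.0800) and FHIP2B (0.0813). Nearest to HLA-DRA were CUTA (0.0330), ATP6V1F (0.0345), TRBC2 (0.0420), ADK (0.0423) and NDUFV2 (0.0430). No class II gene was among the 5 nearest to CIITA or to HLA-DRA of the 17678 searched. Standard errors of members reached 0.175, above these distances, so that this search cannot tell whether class II genes vary together.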

How the data were processed

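The authors prepared RNA-seq libraries, described as poly(A) RNA in the labels, trimmed reads with cutadapt 2.3, aligned them to GRCh38 with STAR 2.7.8a and estimated counts with RSEM 1.3.3, per the labels and the submitters' processing notes. The deposited values are expected counts per gene, in whole numbers and not normalized. The study's supplement describes rRNA depletion instead. The 10 members and all lists were chosen with earlier results of these data known.

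Libraries were grouped by label. Genes were filtered with filterByExpr (minimum count 10), scaled by TMM and compared with the quasi-likelihood test of edgeR 4.0.16 in R 4.3.3, with Benjamini-Hochberg adjustment over 17678 genes and no block. A gene was called at an adjusted p under 0.05. CPM errors are SD over libraries, and intervals are 95%. The procedure was tested on simulated data. Alternatives were RLE factors, library size only, scaling to 13 mitochondrial mRNAs, no filter, at least 10 counts in every library, a replicate block, DESeq2 1.42.0, paralogue families summed, a fold change of at least 2 and each library left out. No symbol of a member had a further entry to sum. Genes named were all members, the 2 lowest and 2 highest called genes of each list, tested neighbours and the 5 nearest patterns of CIITA and HLA-DRA. Other list genes were chosen after their values were seen, and some list genes are not reported here by name. Gene positions and canonical transcripts came from GENCODE on GRCh38. No library was a copy of another: counts within a group differed beyond sampling (chi-square over its degrees of freedom was 5.51 to 20.5). Same-numbered libraries did not deviate together (correlations -0.02, 0.04 and 0.03).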

Additional observations from a re-analysis of the deposited data

How the results depend on the processing

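The scaling changed most. With mitochondrial scaling 7 members were called lower and 0 higher, as were 67.2% and 12.1% of all genes by the same rule, and 9433 of all genes were lower and 1769 higher by at least 1.5-fold, against 4191 and 4012 with TMM. The log2 fold changes that turned negative were HLA-DRA -0.51, HLA-DRB1 -0.33, HLA-DPA1 -0.53, HLA-DPB1 -0.46, HLA-DQA1 -0.28, HLA-DMA -0.035, HLA-DMB -0.72 and CD74 -0.29. With library size only, 4 members were higher and 1, CIITA, lower, and HLA-DMB was at -0.084. Without a filter, HLA-DMB was at -0.019 and CIITA was the 1 member lower, as with DESeq2. At a fold of at least 2, 2450 of all genes were lower and 2643 higher. Leaving out 1 library at a time gave 5 to 8 members higher and 0 to 1 lower. HLA-DMB then ranged from -0.067 to 0.118, and the log2 difference in HLA-DPA1 to HLA-DPB1 from -0.160 to 0.025. The cause of these shifts was not tested. Without the mitochondrial scaling, 100 of 125 values of members kept their direction and side of the threshold, 10 lost the call, 9 gained it and 6 turned sign. With a replicate block, which the libraries' deviations do not bear out as a pairing, 7 members were higher and 0 lower, and 4162 of all genes were lower and 3926 higher. No spike-in RNA was analysed here to choose between the scalings, and HLA-DQB1 and HLA-DQA1, with the fewest counts, had the largest standard errors of the members (0.175 and 0.165).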
